A study of Bos taurus with 11 samples.

Results

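The genes described are the superoxide dismutases SOD1, SOD2 and SOD3, catalase (CAT), the peroxiredoxins PRDX1, PRDX2, PRDX3 and PRDX6, sulfiredoxin (SRXN1) and thioredoxin reductase 1 (TXNRD1). They were chosen by symbol from the platform annotation of an Affymetrix bovine expression array. All 10 were found, as 10 of 9155 named genes, and they had 15 of the 24016 probe sets tested. A probe set is a group of short probes read together as 1 measurement. SOD3 had 2 probe sets, PRDX3 had 2, PRDX6 had 4 and each of the others had 1, and where a gene had several, the one with the highest average signal stands for it.

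Endometrium, the inner lining of the uterus, was taken at slaughter 14 ± 0.4 days after calving from multiparous Holstein-Friesian cows of mean parity 4.7, and each cow was measured on 1 array. The 6 cows in severe negative energy balance were given 25 kg of silage and 4 kg of concentrate daily and were milked 3 times a day. The 5 cows in mild negative energy balance had silage to appetite with 8 kg of concentrate and were milked 1 time a day, and both regimes started on day 2 after calving. Negative energy balance is the state of a cow that puts more energy into milk and maintenance than it eats. Feed and milking frequency differed together between the groups, so their parts cannot be told apart. Values are log2 signals, so a difference of 1 is a doubling of signal. The dimmest 40% of probe sets averaged under 5.52, and a signal below that limit is called dim, since differences are compressed there. Arrays correlated with each other at 0.948 to 0.991. Stromal fibroblast markers were above that limit on average in 11 of 11 measured genes and epithelial markers in 12 of 13. Smooth muscle markers were dim in 0 of 7. Of these, TAGLN, ACTA2 and DES averaged 12.39, 13.30 and 11.42 in severe cows and 12.83, 13.59 and 11.81 in mild cows. The mean 3' minus 5' difference of 6 control transcripts, a sign of RNA quality, ran from 0.42 to 0.82 in severe cows and from 0.45 to 0.65 in mild cows.

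Superoxide leaks from the respiratory chain and is made on purpose by the NADPH oxidase of phagocytes. Dismutases turn it into hydrogen peroxide, SOD1 in the cytosol with copper and zinc, SOD2 in the mitochondrial matrix with manganese and SOD3 outside the cell. Catalase in peroxisomes and the peroxiredoxins in cytosol and mitochondria then remove the peroxide. Thioredoxin returns most oxidised peroxiredoxins to their working form, TXNRD1 recharges thioredoxin with NADPH, and SRXN1 repairs peroxiredoxins that were oxidised too far. SOD2 is known as a gene that inflammatory cytokines induce through NF-kappaB, while SRXN1, TXNRD1 and PRDX1 are known targets of the transcription factor NRF2.

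SOD2 had the largest difference of the 10 genes. Its signal was 10.58, 10.77, 10.94, 11.94, 12.63 and 12.42 in severe cows 1 to 6, against 9.78, 8.95, 9.49, 9.49 and 9.28 in mild cows 1 to 5. No mild cow reached any severe cow, and severe cows 4, 5 and 6 lay more than 1 log2 unit above severe cow 1. The severe mean was 11.55 ± 0.90 (SD, n = 6) and the mild mean 9.40 ± 0.30 (SD, n = 5). Their difference was 2.15 ± 0.38 (SE) with a 95% interval of 1.33 to 2.97, which is 4.43-fold with an interval of 2.51 to 7.82. The spread within severe cows was larger for SOD2 than for 97.9% of all genes, and within mild cows larger than for 78.1%. The difference did not pass the test across all probe sets (limma adjusted p = 0.215, unadjusted p = 0.000107), although only 3 of the 9155 genes had a smaller p. No gene passed at an adjusted p under 0.05 (0.0% called), while 3085 probe sets had an unadjusted p under 0.05 (12.8%). With 1 cow left out the adjusted p for SOD2 ran from 0.0525, without severe cow 1, to 0.489, without severe cow 4. With a score of neutrophil markers as a covariate, described further on, the difference was 0.64 (limma adjusted p = 0.906). In a bulk sample such as these, more or fewer cells of a type and more or less RNA per cell cannot be told apart.

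**Figure D1:**
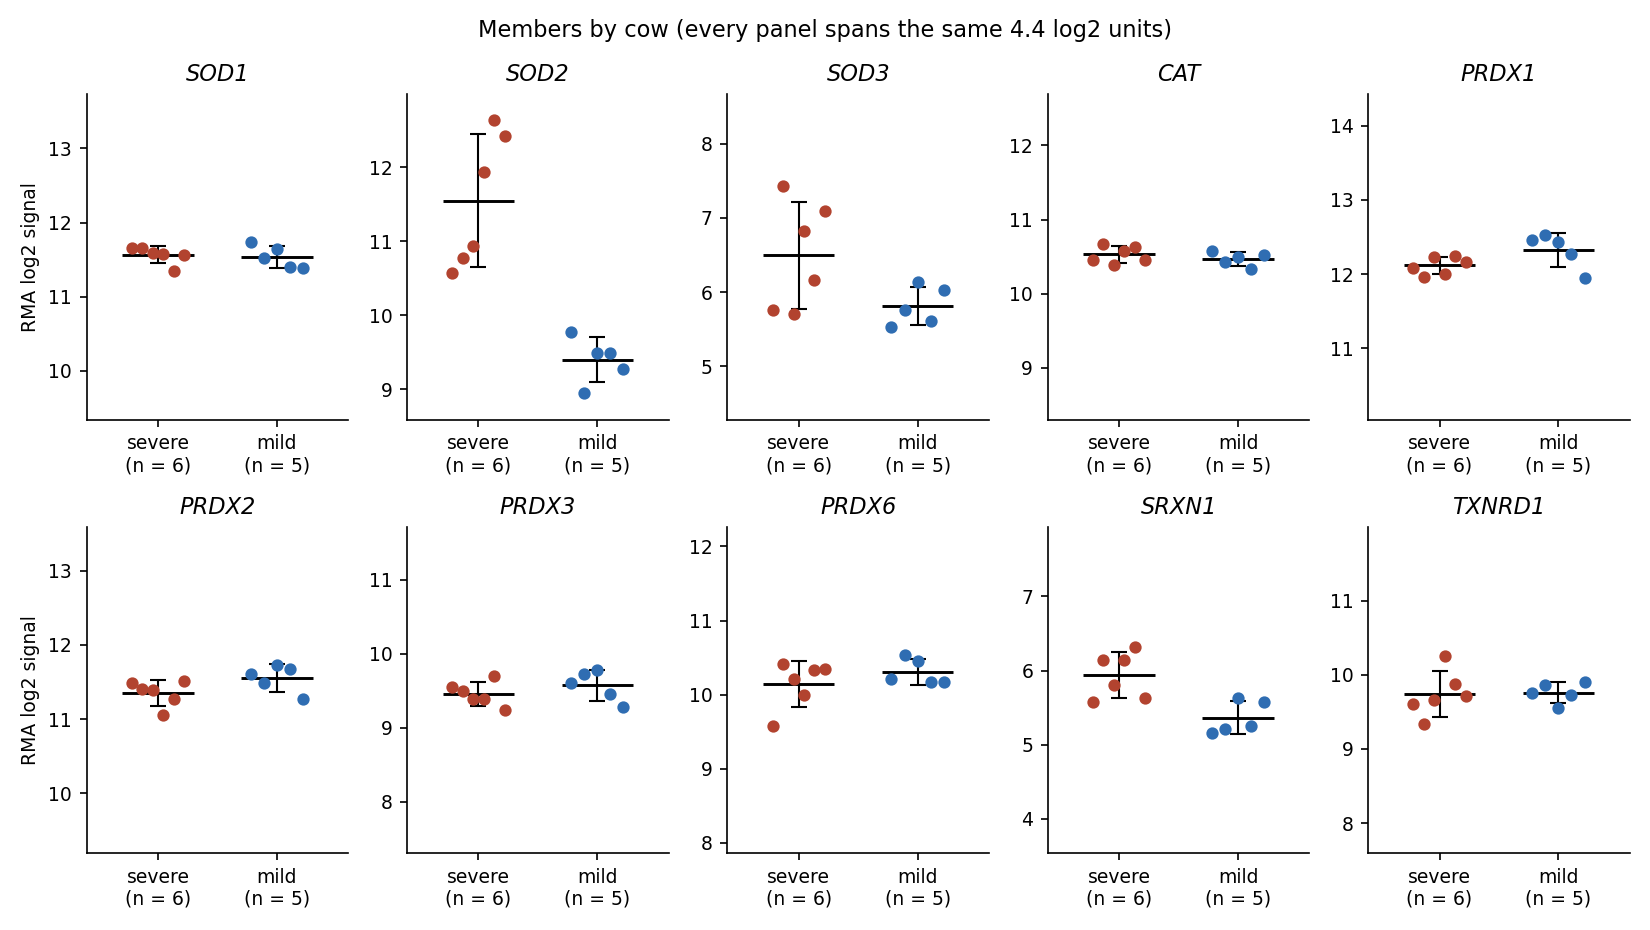
RMA log2 signal (vertical axis) of the 10 genes in each cow, severe cows left in red and mild cows right in blue, with the mean as a line and the SD as a bar. SOD2 separates the groups, with severe cows from 10.58 to 12.63 and mild cows from 8.95 to 9.78, while the groups overlap in the other 9 panels.

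SOD2 was then set against SOD1 and SOD3 within each cow, which asks if it differed between regimes by another amount than the other dismutases. The log2 signal of SOD2 minus that of SOD1 was -1.08, -0.89, -0.65, 0.36, 1.28 and 0.87 in severe cows 1 to 6, against -1.96, -2.57, -2.15, -1.90 and -2.11 in mild cows 1 to 5. Only the shift between the groups can be read, since signals of different probe sets are not levels on 1 scale. That shift was 2.12 ± 0.42 (SE), and the groups did not overlap. An exact two-sided permutation of the 462 splits of the cows gave p = 0.00433, the smallest it can give, or 0.00866 adjusted over the 2 pairs. SOD2 alone fixed this outcome. SOD1 ran only from 11.35 to 11.73 over all cows, a narrower span than the SOD2 gap from 9.78 to 10.58 between the groups. The groups thus could not overlap, and this permutation p adds no support beyond the SOD2 values themselves. The pair was also chosen with the SOD2 difference already known. The same shift fitted by limma and adjusted over all probe sets had an adjusted p of 0.241.

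The signal of SOD2 minus that of SOD3 was 4.82, 3.35, 5.23, 5.11, 6.48 and 5.33 in severe cows 1 to 6, against 4.24, 3.20, 3.36, 3.88 and 3.26 in mild cows 1 to 5. Severe cow 2, which had the highest SOD3 of all cows, lay among the mild cows, and the other 5 severe cows lay above them. The shift was 1.47 ± 0.46 (SE, exact two-sided permutation p = 0.0173, also 0.0173 adjusted over the 2 pairs). Mild cow 2 and severe cow 5 had the lowest and the highest SOD2 of all cows. They also had the lowest and the highest SOD2 minus SOD3, so leaving them out had to lower the shift. Without them the shift was 1.08 with an exact permutation p of 0.0635. The limma fit over all cows gave an adjusted p of 0.301.

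**Figure D2:**
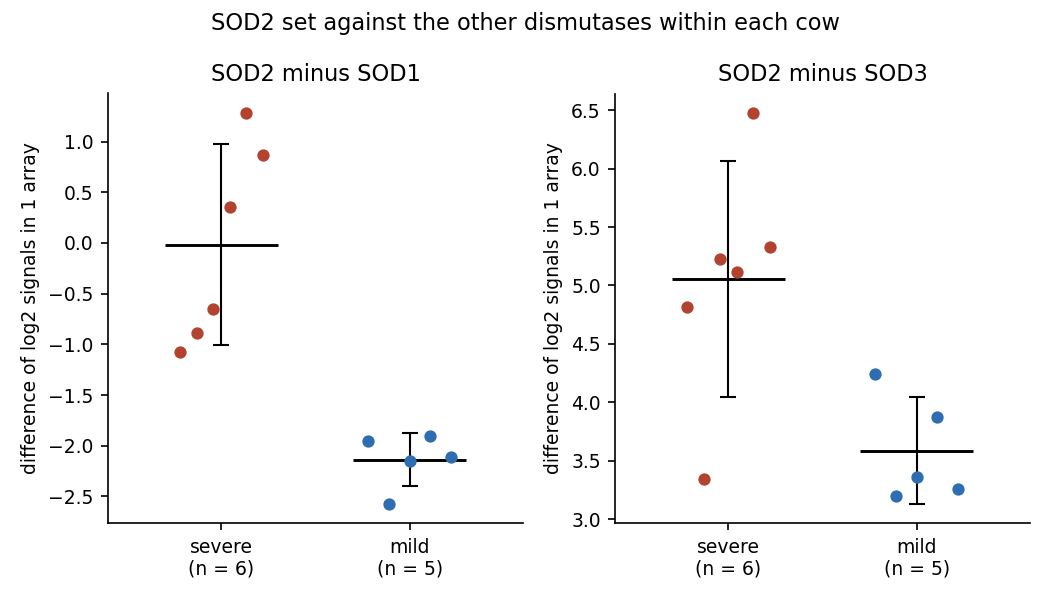
Difference of log2 signals within 1 array (vertical axis), SOD2 minus SOD1 left and SOD2 minus SOD3 right, with severe cows left in red and mild cows in blue, the mean as a line and the SD as a bar. For SOD2 minus SOD1 the severe cows run from -1.08 to 1.28 and the mild cows from -2.57 to -1.90, and for SOD2 minus SOD3 severe cow 2, at 3.35, lies within the mild range.

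SOD1, the cytosolic dismutase, had nearly equal means. Its signal was 11.35 at the lowest, 11.58 in the median and 11.66 at the highest in severe cows, against 11.73, 11.53, 11.64, 11.40 and 11.39 in mild cows 1 to 5. The groups overlapped almost fully. The log2 difference was 0.029 ± 0.085 (SE, limma adjusted p = 0.914), and its 95% interval of -0.16 to 0.21 lay wholly below that of SOD2.

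SOD3, the secreted dismutase of the extracellular matrix, had a signal of 5.76, 7.43, 5.71, 6.82, 6.16 and 7.09 in severe cows 1 to 6, against 5.53, 5.75, 6.13, 5.62 and 6.02 in mild cows 1 to 5. Severe cows 2, 4, 5 and 6 lay above the highest mild cow, severe cows 1 and 3 lay among the mild cows, and several values were close to the dim limit. The severe mean was 6.49 ± 0.72 (SD, n = 6) and the mild mean 5.81 ± 0.26 (SD, n = 5). Their difference of 0.68 ± 0.30 (SE, 95% interval 0.015 to 1.35) did not pass (limma adjusted p = 0.381, unadjusted p = 0.0457). With 1 cow left out the difference ran from 0.50 to 0.84 and the unadjusted limma p from 0.0145 to 0.0985, and with array weights that p was 0.0633. The other SOD3 probe set was dim in every cow and differed by 0.090 ± 0.068 (SE), and the mean of both probe sets differed by 0.39.

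SRXN1, which reverses the overoxidation of peroxiredoxins, came next after SOD2 in p among the 10 genes. Its signal was 5.58, 6.15, 5.81, 6.14, 6.32 and 5.63 in severe cows 1 to 6, against 5.15, 5.21, 5.63, 5.26 and 5.57 in mild cows 1 to 5. All 6 severe cows lay above the mild mean and 4 of them above the highest mild cow, while 3 of the 5 mild cows were dim. The severe mean of 5.94 ± 0.31 (SD, n = 6) exceeded the mild mean of 5.37 ± 0.22 (SD, n = 5) by 0.57 ± 0.15 (SE, 95% interval 0.24 to 0.91). It did not pass (limma adjusted p = 0.288, unadjusted p = 0.00290), and no fold is given because the mild mean is dim.

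Catalase, which splits hydrogen peroxide into water and oxygen, had a signal that was 10.39 at the lowest, 10.52 in the median and 10.67 at the highest in severe cows, against 10.58, 10.43, 10.50, 10.33 and 10.52 in mild cows 1 to 5. Severe cows 2, 4 and 5 lay above the highest mild cow and the others among the mild cows. The mean difference was 0.060 ± 0.074 (SE, 95% interval -0.10 to 0.22, limma adjusted p = 0.769).

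The 4 peroxiredoxins all averaged lower in severe cows, by little and without passing. PRDX1, an abundant cytosolic enzyme, was 11.96 at the lowest, 12.12 in the median and 12.24 at the highest in severe cows, against 12.46, 12.52, 12.43, 12.27 and 11.95 in mild cows 1 to 5. All severe cows lay under mild cows 1 to 4, and mild cow 5 was the lowest of all. The log2 difference was -0.21 ± 0.11 (SE, 95% interval -0.44 to 0.021, limma adjusted p = 0.434). It was -0.30 without mild cow 5 (limma adjusted p = 0.163) and -0.32 after a second quantile normalization.

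PRDX2, a cytosolic peroxiredoxin best known from red blood cells, was 11.05 at the lowest, 11.40 in the median and 11.51 at the highest in severe cows, against 11.60, 11.48, 11.73, 11.68 and 11.26 in mild cows 1 to 5. Every severe cow lay below the mild mean, but mild cows 2 and 5 lay within the range of the severe cows. Its log2 difference was -0.20 ± 0.11 (SE, limma adjusted p = 0.456). Haemoglobin transcripts were near the floor in both groups, HBB averaging 3.97 in severe cows and 4.19 in mild cows, and 7 of 9 red blood cell markers were dim in both groups. Those not dim were CA2, at -1.30 ± 0.61 (SE), and GYPC, at 0.27 ± 0.17 (SE). The part of blood in the PRDX2 difference was not tested.

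PRDX3, a peroxiredoxin of mitochondria and thus a partner of SOD2 in place, had a small negative difference whose interval included 0. PRDX3 was 9.24 at the lowest, 9.44 in the median and 9.70 at the highest in severe cows, against 9.61, 9.73, 9.78, 9.45 and 9.29 in mild cows 1 to 5. The groups overlapped, and mild cow 5 was the lowest mild cow for PRDX3 as for SOD1, PRDX1 and PRDX2. Severe minus mild came to -0.11 ± 0.11 (SE, 95% interval -0.35 to 0.12, limma adjusted p = 0.690), and it ran from -0.18 without mild cow 5 to -0.060 without mild cow 3. The other PRDX3 probe set differed by -0.0036 ± 0.10 (SE).

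PRDX6, which works with glutathione in place of thioredoxin, was 9.58 at the lowest, 10.27 in the median and 10.41 at the highest in severe cows, against 10.20, 10.54, 10.46, 10.17 and 10.17 in mild cows 1 to 5. Severe cow 1 was the low one, and without it the difference of -0.17 ± 0.15 (SE, limma adjusted p = 0.665) was -0.053. The other PRDX6 probe sets differed by -0.17 ± 0.16, -0.24 ± 0.15 and 0.024 ± 0.079 (SE), the last of them dim in every cow.

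TXNRD1, the cytosolic enzyme that keeps thioredoxin reduced, was 9.33 at the lowest, 9.69 in the median and 10.25 at the highest in severe cows, against 9.75, 9.86, 9.55, 9.73 and 9.91 in mild cows 1 to 5. Severe cows lay on both sides of the mild cows, severe cow 2 at the bottom and severe cow 4 at the top. The mean difference was -0.018 ± 0.14 (SE, 95% interval -0.32 to 0.29, limma adjusted p = 0.970).

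**Figure D3:**
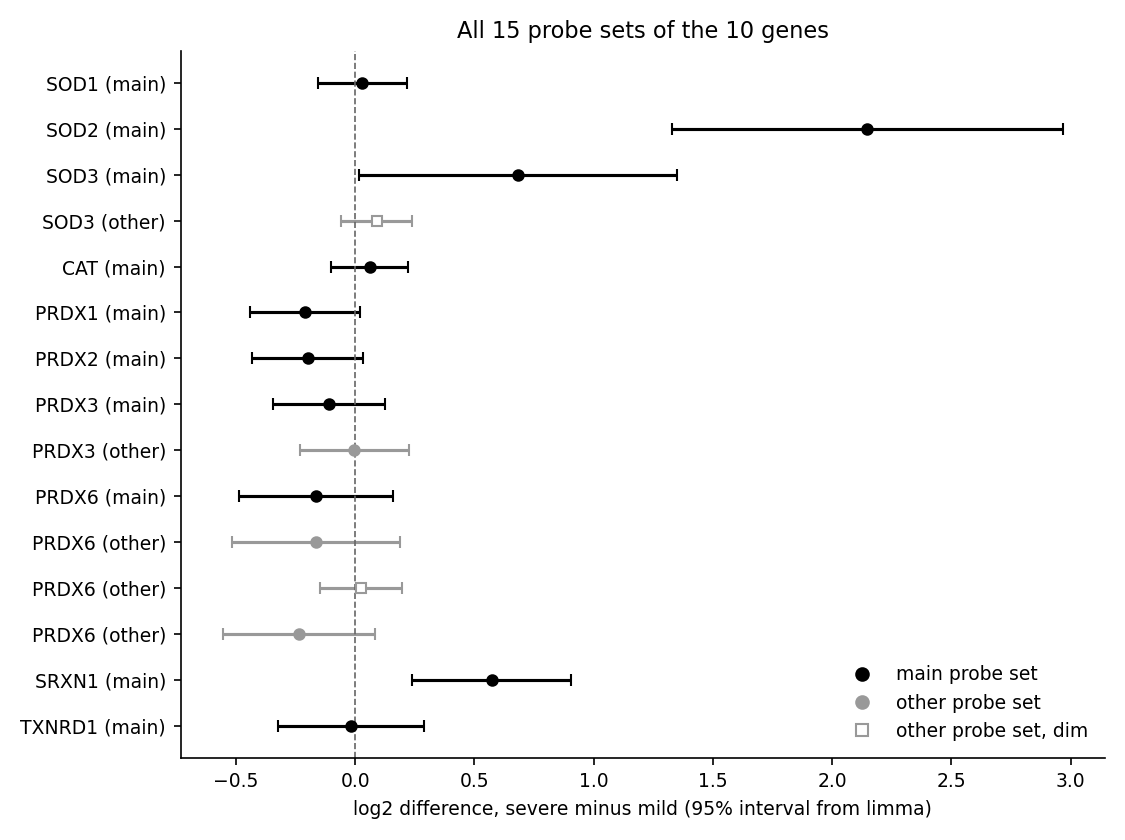
Log2 difference, severe minus mild (horizontal axis), for each of the 15 probe sets of the 10 genes, with the 95% interval from limma as a bar, main probe sets in black, other probe sets in grey and dim ones as open squares. The intervals of the main probe sets of SOD2 (1.33 to 2.97), SRXN1 (0.24 to 0.91) and SOD3 (0.015 to 1.35) lie above 0, and all others include 0.

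Counted together, 5 of the 10 genes had a positive and 5 a negative difference, beside 48.9% positive among all 9155 genes, with a median of 0.0054 beside -0.0038 for all genes. None passed at an adjusted p under 0.05, as for all genes (0.0% called). At an unadjusted p under 0.05, SOD2, SRXN1 and SOD3 were higher in severe cows, 3 of 10 beside 8.45% of all genes, and 0 of 10 were lower beside 7.46%. SOD3 was over that limit in part of the fits with 1 cow left out, as given above. The count of lower genes also depended on the fit. After a second quantile normalization PRDX1 and PRDX2 were lower with unadjusted limma p of 0.0155 and 0.0359. With array weights these were 0.0352 and 0.0275, and without mild cow 5 they were 0.00385 and 0.0206. The groups did not overlap in 1 of 10 genes, SOD2, beside 1.19% of all genes.

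The 10 genes were also compared cow by cow within the regimes. After the mean of each group was taken off, the 45 pairs of genes had a median Pearson correlation of 0.168 over the 11 cows. This is a description, since all genes share the same arrays. Only 3 pairs were above 0.5, PRDX1 with PRDX3 at 0.638 (Spearman 0.527), CAT with SRXN1 at 0.622 (Spearman 0.464) and SOD3 with PRDX6 at 0.504 (Spearman 0.382). Without the cows farthest from the median of the first gene these were 0.310, 0.605 and 0.278. The single pair below -0.5 was PRDX2 with TXNRD1 at -0.771 (Spearman -0.782, and -0.563 without such cows). Severe cow 4 had the lowest PRDX2 and the highest TXNRD1 of the 11.

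Among 7134 other genes that were not dim, the pattern most like that of SOD2 within the groups was that of FLOT2, a membrane scaffold protein, with a Pearson correlation of 0.972 over the 11 cows (Spearman 0.991). The next was TXN, thioredoxin itself, at 0.965 (Spearman 0.945, and 0.929 without the cows farthest from the SOD2 median), followed by GSPT1, a translation release factor, at 0.940 and PSPH, which makes serine from phosphoserine, at 0.939. TXN was 11.25, 11.36, 11.27, 11.70, 12.14 and 11.99 in severe cows 1 to 6, against 11.51, 11.37, 11.54, 11.60 and 11.44 in mild cows 1 to 5. It was high in severe cows 4, 5 and 6 as SOD2 was, but severe cows 1, 2 and 3 lay below all mild cows, so its means of 11.62 and 11.49 differed by 0.13 ± 0.16 (SE, limma adjusted p = 0.780). FLOT2 and PSPH differed by 0.19 ± 0.11 and 0.40 ± 0.21 (SE), and GSPT1 by -0.072 ± 0.089 (SE).

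The genes nearest to other members by the same measure were different ones. These, like those of SOD2, are the highest of 7134 correlations over 11 cows, given as a description with no test. SOD1 went with UBE2E3, TSC22D1, SMAD4 and TLE5 (correlations of 0.910 to 0.935), and SOD3 with TMEM60, MAF1, VPS4B and CCND3 (0.889 to 0.923). CAT went with RAMP1, CD68, FLI1 and RNF19A (0.878 to 0.928), of which CD68 is a macrophage marker and FLI1 a transcription factor of blood and endothelial cells. PRDX1 went with the RNA-binding proteins HNRNPD, LSM4 and HNRNPAB and with the protease inhibitor SERPINE2 (0.957 to 0.979), and PRDX2 with TARDBP, COX5B, CHID1 and SS18L2 (0.842 to 0.888). PRDX3 went with UAP1, RNASEH2B, SRP9 and FGF10 (0.835 to 0.878), and PRDX6 with PDHA1, BABAM1, IRAK4 and MPV17 (0.910 to 0.936). SRXN1 went with NR1H3, BOLA-DQA1, IL18 and TENT2 (0.891 to 0.927). TXNRD1 went with IRF8, SLC16A3, TDRD7 and USP18 (0.844 to 0.852), though without the cows farthest from its median TDRD7 was at 0.437 and USP18 at 0.405.

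Lists of genes that work beside the 10 were then read. No member of any list passed at an adjusted p under 0.05, so counts are at an unadjusted p under 0.05, beside 8.45% of all genes higher and 7.46% lower. Of 13 other peroxiredoxins, thioredoxins and partners, 0 were higher and 2 lower, with a median difference of -0.017. PRDX5, a peroxiredoxin of mitochondria and peroxisomes, had a severe mean of 10.61 ± 0.28 (SD, n = 6), a mild mean of 11.11 ± 0.28 (SD, n = 5) and a difference of -0.50 ± 0.16 (SE). The glutaredoxin GLRX3 differed by -0.18 ± 0.069 and TXN2, the mitochondrial thioredoxin, by -0.15 ± 0.098 (SE).

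Of 12 genes of glutathione synthesis and peroxidases, 3 were higher and 2 lower (median -0.096). GSS, which makes glutathione, differed by -0.35 ± 0.070, GPX7, a peroxidase of the endoplasmic reticulum, by -0.45 ± 0.14, and GPX1, the cytosolic glutathione peroxidase, by 0.35 ± 0.12 (SE). Of 19 genes of the NRF2 pathway, 4 were higher and 1 lower (median -0.016). MAFF, a small MAF protein that pairs with NRF2, differed by 0.84 ± 0.20, GCLM, a subunit of the first enzyme of glutathione synthesis, by 0.25 ± 0.094, and NFE2L2, which encodes NRF2, by -0.31 ± 0.12 (SE). SRXN1 and TXNRD1, both known NRF2 targets, had differences of 0.57 and -0.018.

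Sources of superoxide and peroxide had 4 of 9 measured genes higher and 0 lower, with a median difference of 0.56. Of the 9, 3 were dim on average over all cows, and these were not among the 4 higher ones. XDH, xanthine dehydrogenase, had a severe mean of 11.28 ± 0.36 (SD, n = 6) and a mild mean of 10.45 ± 0.34 (SD, n = 5) without overlap, differing by 0.83 ± 0.19 (SE). CYBA, the small membrane subunit of the phagocyte NADPH oxidase, differed by 0.45 ± 0.14 and RAC2, its GTPase in blood cells, by 0.82 ± 0.31 (SE). In the list of metal supply 3 of 9 were higher and 0 lower (median 0.32). The metallothioneins MT1A and MT2A differed by 2.54 ± 0.72 and 1.34 ± 0.59, and SLC31A2, a copper transporter, by 0.49 ± 0.22 (SE). Of the 9 genes, 6 had a positive and 3 a negative difference. Among the negative ones was another copper transporter, SLC31A1, at -0.16 ± 0.077 (SE).

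**Figure D4:**
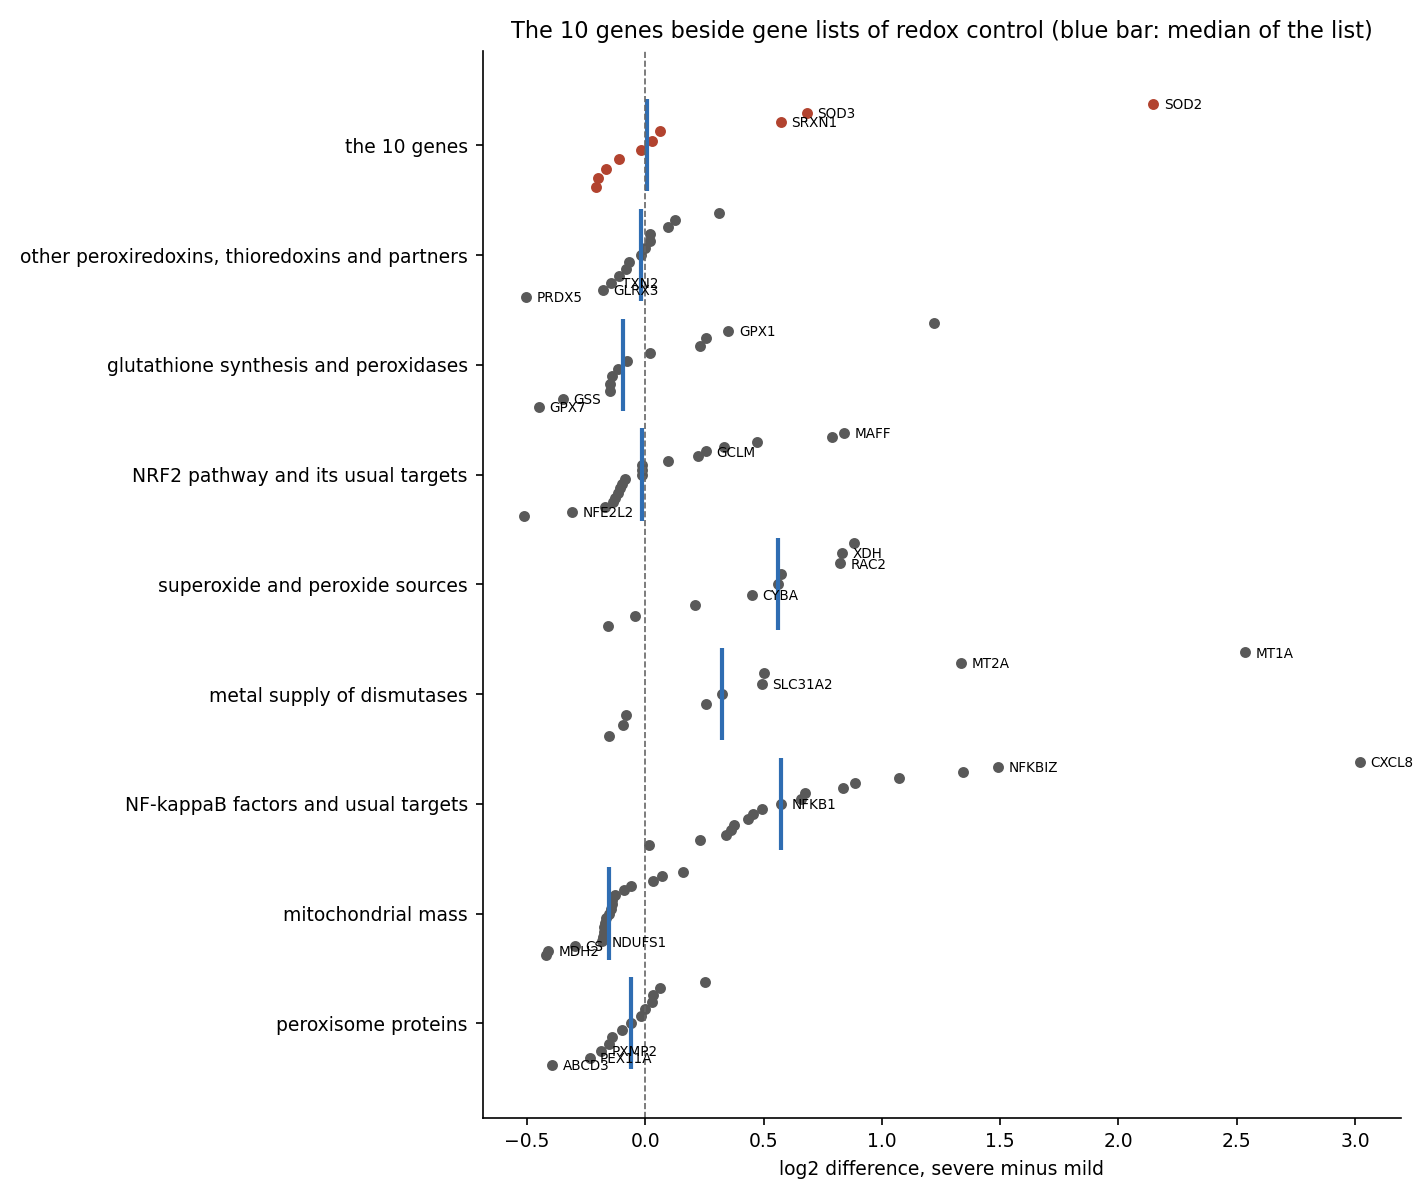
Log2 difference, severe minus mild (horizontal axis), of every measured gene of the 10 genes and of 8 lists, 1 point per gene, with the median of each list as a blue bar and the genes with the smallest p named. The medians lie near 0 for the peroxiredoxin, glutathione and NRF2 lists (-0.017, -0.096 and -0.016) and at 0.56 and 0.58 for superoxide sources and NF-kappaB genes.

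Genes of the compartments these enzymes work in were read as well. Of 19 genes read for mitochondrial mass, 3 had a positive and 16 a negative difference (median -0.16), and 0 were higher and 2 lower at an unadjusted p under 0.05. MDH2 and CS, enzymes of the citric acid cycle, differed by -0.41 ± 0.11 and -0.30 ± 0.093, and NDUFS1, a subunit of complex I, by -0.19 ± 0.086 (SE). Of 13 peroxisome proteins, 0 were higher and 3 lower (median -0.062), among them the transporter ABCD3 at -0.39 ± 0.14, the membrane channel PXMP2 at -0.19 ± 0.073 and PEX11A, which acts in peroxisome division, at -0.24 ± 0.098 (SE).

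All 17 measured NF-kappaB factors and usual targets had a positive difference (median 0.58), and 12 of them were higher and 0 lower at an unadjusted p under 0.05. Of the 17, 4 were dim on average over all cows, some of those 12 among them. CXCL8, a neutrophil chemokine, differed by 3.02 ± 0.64, NFKBIZ, a nuclear partner of NF-kappaB, by 1.49 ± 0.34, and NFKB1, the p50 subunit, by 0.58 ± 0.16 (SE). The score of this list, the mean deviation of its genes in each cow, ran from -0.23 to 1.52 in severe cows and from -0.65 to -0.31 in mild cows without overlap. It was -0.23, 0.094, -0.12, 0.50, 1.52 and 0.36 in severe cows 1 to 6, which places severe cows 4, 5 and 6 highest, as SOD2 did. The metal supply score was also highest in severe cows 4, 5 and 6, at 0.29, 0.87 and 0.59, and did not overlap between the groups. That score weighs mostly on MT1A and MT2A, which had the largest differences of the list and severe SDs of 1.72 and 1.41. The mean difference of the list was 0.57 beside a median of 0.32, and 3 of its 9 genes had a negative difference. The score of superoxide and peroxide sources was highest in the same cows, at 0.49, 0.71 and 0.28, but the groups overlapped. The part of the NF-kappaB genes or of these other lists in the SOD2 difference was not tested.

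Markers of neutrophils, phagocytes that hold much NADPH oxidase, also separated the groups. All 8 measured markers had a positive difference, and 7 were higher at an unadjusted p under 0.05. CXCR1, a chemokine receptor of neutrophils, averaged 7.37 in severe cows and 4.70 in mild cows. S100A8, a calcium-binding protein of their cytosol, averaged 11.39 in severe cows and 8.15 in mild cows, and S100A12, of the same family, 11.75 in severe cows and 8.72 in mild cows. Of the 8 markers 1 was dim on average in severe cows and 4 in mild cows. The summed log2 signal of the 8 ran from 54.3 to 75.5 in severe cows and from 41.6 to 52.6 in mild cows. The neutrophil score was -0.42, 0.44, 0.32, 2.22, 2.14 and 1.38 in severe cows 1 to 6, against -1.29, -2.02, -0.64, -0.73 and -1.41 in mild cows 1 to 5. With this score as a covariate in limma the differences were 0.64 for SOD2, 0.23 for SOD3, 0.17 for SRXN1 and 0.16 for SOD1. They were -0.013 for CAT, -0.21 for PRDX1, -0.082 for PRDX2, -0.11 for PRDX3, -0.35 for PRDX6 and -0.34 for TXNRD1, and none passed (adjusted p from 0.906 to 0.998). The score itself did not overlap between the groups, so group and score are hard to separate in that fit.

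**Figure D5:**
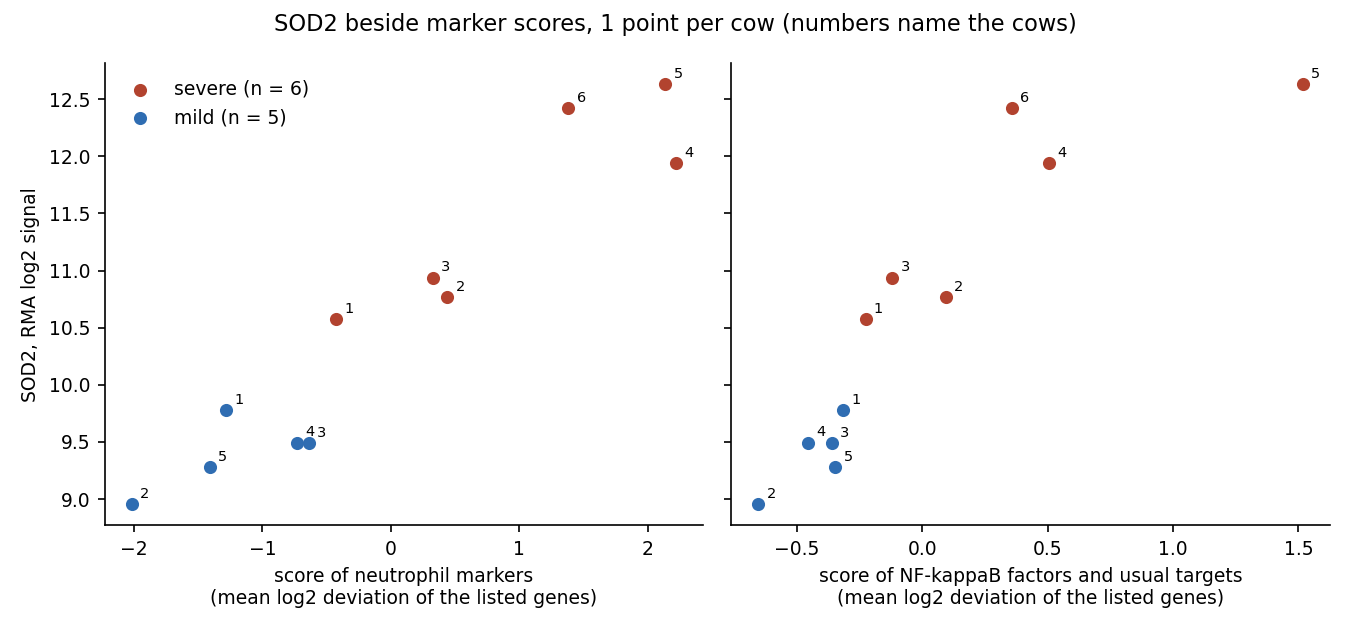
SOD2 as RMA log2 signal (vertical axis) beside the neutrophil marker score (left) and the score of NF-kappaB genes (right), both as mean log2 deviation of the listed genes, with 1 point per cow, severe cows in red and mild cows in blue, numbered as in the text. Severe cows 4, 5 and 6 lie at the upper right of the left panel, and mild cow 2 lies at the lower left of both. In the right panel severe cow 5 lies far right at 1.52, and severe cows 4 and 6 lie nearer the middle, at 0.50 and 0.36.

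Other cell types gave the following values beside these results, and their part was not tested. All 10 macrophage markers had a positive difference (median 0.75, 4 at an unadjusted p under 0.05, led by C1QA, C1QB and C1QC), with summed signals of 80.8 to 100.4 in severe cows and 76.9 to 90.2 in mild cows. All 14 T and NK cell markers (median 0.69, 10 at an unadjusted p under 0.05, led by ZAP70, PRF1 and CD3G) and all 5 B and plasma cell markers (median 1.80, 5 at an unadjusted p under 0.05) were positive as well. Of these, 3 of the 14 and 2 of the 5 were dim on average over all cows. Epithelial markers had a median of -0.039 and stromal fibroblast markers one of 0.080, with 0 of 13 higher and 1 lower in the epithelial list and 1 of 11 higher and 1 lower in the stromal list at an unadjusted p under 0.05. The stromal pair was PDGFRA, a growth factor receptor of fibroblasts, at 0.97 ± 0.27 (SE) and HOXA10, a transcription factor of the uterus, at -0.71 ± 0.20 (SE). Smooth muscle markers were at -0.28, endothelial markers at 0.17 and red blood cell markers at -0.041, the last with 7 of 9 genes dim. With the epithelial score as a covariate the SOD2 difference was 2.06.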

How the data were processed

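RNA was extracted with Trizol and biotin-labelled, per the labels' protocols. The authors deposited log2 values, 1 per probe set, made with RMA per the submitters' processing notes. RMA corrects background, normalizes between arrays and summarises probes. That the scale is log2 follows from the range of the values, and RMA's version is not given in the sources used here. All arrays had a median of 6.20, so a shift shared by every transcript would not show.

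Of 24128 probe sets, 112 controls were left out. The 2016 platform annotation gave 1 symbol to 13292 of 24016 probe sets, several to 86 and left 10638 unlisted. Entrez numbers matched 13263 to a RefSeq gene table, which renamed 0. Severe minus mild was fitted with limma 3.58.1 in R 4.3.3 (lmFit, eBayes, two-sided, Benjamini-Hochberg over 24016 probe sets, threshold 0.05), tested on simulated data. The SOD2 pairs used exact permutation (scipy 1.17.1). Members, lists and tests were chosen with earlier results of these data known. Named are the members, the 4 genes nearest each, the 3 smallest p of a list and SLC31A1, chosen after its value was seen. Cow numbers follow sample order, and the cows' blocks and any batch are not given. Sequences were not used here. Alternatives were a filter on dim probe sets, a second quantile normalization, trend and robust eBayes, array weights, neutrophil or epithelial covariates, other handling of probe sets, other thresholds and cows left out. The number of arrays limits the precision.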

Additional observations from a re-analysis of the deposited data

Results flagged for a closer look

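A cow far from the others of its group, by the gap to its nearest neighbour over the whole range, was found in 2 of 34 groups of values checked, where chance gives about 1 in 20. For SOD1 it was severe cow 5, at 11.35, while the other severe cows lay between 11.56 and 11.66. For the PRDX6 probe set with the suffix s_at it was severe cow 6, at 5.54, with the other severe cows between 5.98 and 6.21.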

How the results depend on the processing

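SOD2, SOD3, SRXN1 and the 4 peroxiredoxins kept their direction in all 20 alternatives each, and none of the 10 genes passed at an adjusted p under 0.05 in any. The SOD2 difference ran from 1.93 to 2.34 with 1 cow left out (adjusted p 0.0525 to 0.489). Differences near 0 turned sign. SOD1 was at -0.038 after a second quantile normalization and ran from -0.0082 to 0.078 with 1 cow left out, CAT was at -0.013 when the neutrophil score was a covariate, and TXNRD1 was at 0.070 with array weights and ran from -0.12 to 0.064 with 1 cow left out. The neutrophil covariate moved SOD2 from 2.15 to 0.64, SOD3 from 0.68 to 0.23 and SRXN1 from 0.57 to 0.17. It also moved SOD1 to 0.16, PRDX6 to -0.35 and TXNRD1 to -0.34. With 1 cow left out, limma called 0 to 16 probe sets, 16 without severe cow 1 and 2 without severe cow 3, and none of these was of the 10 genes. By an unadjusted p under 0.05, limma called 3085 probe sets and 3 of the 10 genes. SOD2 minus SOD1 ran from 1.86 to 2.33 and SOD2 minus SOD3 from 1.18 to 1.81 with 1 cow left out (exact permutation p up to 0.0381). SOD2 minus SOD3 was at 1.08 without mild cow 2 and severe cow 5. In limma, where adjustment runs over all probe sets in place of 2 pairs, the shifts of 2.12 and 1.47 did not pass. No paired analysis was possible because the labels give no number that pairs cows of the 2 groups. Scanner files were not used here, so background correction could not be varied, and dim signals limit SRXN1 and SOD3.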
